A study of Mus musculus with 5 samples.

Results

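The genes for mitochondrial ribosomal proteins were taken as every gene of the expression table whose symbol starts with Mrpl or Mrps and a digit. This gave 77 of the 21801 genes, and all 77 were measured above 0 in each library. The table came from RNA sequencing of neuroepithelial cells (NECs) of the mouse, the dividing epithelial cells that form the early neural tube. There were 5 libraries of 1 group, replicates 1 to 5, made from total RNA. The labels name no strain, age, genotype or treatment. Nothing ties a replicate to an animal of its own, and the p-values below therefore cover the scatter of these libraries alone, part of which may be technical.

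Mitochondria carry their own ribosome, which translates the few messenger RNAs of the mitochondrial genome into membrane subunits of the respiratory chain and ATP synthase. Its ribosomal RNAs are mitochondrial, but every protein of it is encoded in the nucleus, made in the cytosol and imported. Some of these proteins descend from bacterial ribosomal proteins and others were added during the evolution of mitochondria. Mrps symbols name proteins first assigned to the small subunit, which reads the messenger RNA, and Mrpl symbols those of the large subunit, which joins amino acids. By their place in the ribosome 26 members belonged to the small subunit and 50 to the large, with Mrps18a and Mrps30 counted in the large subunit. Mrps36 was kept apart, since its product is a part of the 2-oxoglutarate dehydrogenase complex.

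The libraries resembled one another in size. Levels were in FPKM, a read density corrected for transcript length and sequencing depth, which summed to between 747034 and 847625 per library, and steps between low values implied totals of 20.5 to 28.2, in units of 1000000 reads. Of 12 markers of neural progenitors, none was listed at 0 in any library, and their FPKM summed to between 290.3 and 341 per library. The 12 mesenchyme markers, also with none at 0, summed to 41.7, 68.6, 144, 118 and 121 FPKM in replicates 1 to 5. The sums were 93.5 to 132 for 12 neuron markers, with Slc17a6 at 0 in some libraries, and 116 to 178 for 8 surface ectoderm markers. For 10 blood and endothelium markers they were 6.98 to 15.4, with Ptprc at 0 in replicate 5. Fewer cells of a type and less RNA per cell cannot be told apart in such bulk libraries.

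The letters around the start sites of the members were searched for short motifs, none of which stood in most members. RefSeq promoter windows (build GRCm38.p6, 250 bases before to 50 after the transcript start) were found by symbol for 68 of the 77 members. There was no entry for Mrpl4, Mrpl13, Mrpl15, Mrpl19, Mrpl38, Mrpl54, Mrps28, Mrps34 and Mrps35. The windows were searched on both strands for CCGGAAG, the core read by ETS factors such as GABP, for GCGC and TGCGC set apart by any 1 base, the core of NRF1, and for AAGATGGC, that of YY1. GABP and NRF1 are known as activators of nuclear genes for mitochondrial proteins. The 120 bases before the start are given 5′ to 3′ for 8 members whose stretch held no annotated exon, with matches to the ETS and NRF1 letters on either strand in capitals. The stretch of Mrpl48 belongs to 1 of several annotated starts and lies inside the gene, whose 5′ end is at 100608301. The windows of its other starts held no ETS, NRF1 or YY1 match. The stretch of Mrps24 also lies inside its gene, whose 5′ end is at 5715680. Mrpl34, Mrpl48, Mrpl52 and Mrps22 show the ETS letters near the start and Mrpl45 the NRF1 letters. Mrpl20 and Mrpl42 are shown as 2 of the highest members and Mrps24 as 1 of the lowest, and none of these stretches held either match.
Mrpl34 (chr8:71464806-71464925, + strand): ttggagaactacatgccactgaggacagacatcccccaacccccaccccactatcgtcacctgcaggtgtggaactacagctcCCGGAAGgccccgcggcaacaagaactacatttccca
Mrpl48 (chr7:100583131-100583250, - strand): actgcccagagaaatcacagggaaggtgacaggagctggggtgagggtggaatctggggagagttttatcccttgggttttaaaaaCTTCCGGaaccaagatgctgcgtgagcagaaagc
Mrpl52 (chr14:54426789-54426908, + strand): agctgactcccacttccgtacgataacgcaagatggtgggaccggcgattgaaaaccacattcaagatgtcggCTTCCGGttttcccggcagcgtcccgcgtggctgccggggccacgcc
Mrps22 (chr9:98601680-98601799, - strand): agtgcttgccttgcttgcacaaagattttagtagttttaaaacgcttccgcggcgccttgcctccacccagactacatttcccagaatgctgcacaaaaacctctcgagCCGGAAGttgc
Mrpl45 (chr11:97315596-97315715, + strand): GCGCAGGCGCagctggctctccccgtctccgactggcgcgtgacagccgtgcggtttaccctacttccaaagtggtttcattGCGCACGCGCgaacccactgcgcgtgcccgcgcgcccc
Mrpl20 (chr4:155802758-155802877, + strand): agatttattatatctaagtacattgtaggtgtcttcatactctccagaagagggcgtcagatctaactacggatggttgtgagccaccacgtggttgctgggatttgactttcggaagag
Mrpl42 (chr10:95501950-95502069, - strand): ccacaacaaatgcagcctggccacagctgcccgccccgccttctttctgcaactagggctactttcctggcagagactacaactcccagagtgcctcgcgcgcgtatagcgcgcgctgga
Mrps24 (chr11:5707702-5707821, - strand): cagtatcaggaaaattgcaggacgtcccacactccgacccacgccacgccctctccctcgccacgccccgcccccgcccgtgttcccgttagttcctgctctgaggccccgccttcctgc

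The ETS letters stood in the window of 25 of the 68 members (36.8%), against 26.5% of the 4461 genes with a window that averaged 10 FPKM or more and 9.93% of all 27025 genes with a window. Their first base lay at a median of 19 bases before the start, and 26 of 29 matches lay within 100 bases of it. The NRF1 letters were found in 13 members (19.1%), against 14.9% and 5.19% of those gene sets, and the YY1 letters in 12 (17.6%), against 7.04% and 3.19%. At least 1 of the 3 stood in 42 members (61.8%), against 42.2% of the genes at 10 FPKM or more and 16.4% of all. The other letters searched were the E-box CACGTG, found in 7.35% of members and 12.8% of genes at 10 FPKM or more, the CCAAT box CCAAT, in 39.7% and 46.7%, and the TATA box TATAAA, in 7.35% and 8.03%. The motifs were chosen after a first look at the promoters, so these shares are a description and not a test of an excess. A match is a description of the letters and not a site at which a factor was measured. Members with the ETS letters had a median level of 125 FPKM and those without 92.3, while the medians were 96.6 and 109 with and without the NRF1 letters and 90.1 and 105 with and without the YY1 letters.

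The YY1 letters lay mostly just after the start. In 8 of the 12 members they ran on the strand of the gene and began 12 to 37 bases after the start, and in 6 of these the ATG inside AAGATGGC was an annotated start codon of the same gene in GENCODE M21. The placement was not counted in other genes, so whether it is particular to the members was not tested. These 6 sites are shown as 30 bases with the letters in capitals.
Mrps18a (chr17:46111004-46111033, + strand): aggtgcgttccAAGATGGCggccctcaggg
Mrps27 (chr13:99344789-99344818, + strand): tggtgcgctccAAGATGGCggctcccatgg
Mrpl35 (chr6:71823743-71823772, - strand): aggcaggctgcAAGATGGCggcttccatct
Mrpl49 (chr19:6057721-6057750, - strand): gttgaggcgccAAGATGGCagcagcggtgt
Mrps7 (chr11:115604147-115604176, + strand): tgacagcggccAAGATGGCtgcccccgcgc
Mrps24 (chr11:5707652-5707681, - strand): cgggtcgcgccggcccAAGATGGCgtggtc
The sites were alike in letters and unlike in level: Mrps18a stood at 166 ± 6.93 FPKM (mean ± SD, n = 5, as for all levels given in this form) and Mrps24 at 3.30 ± 0.52.

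**Figure D1:**
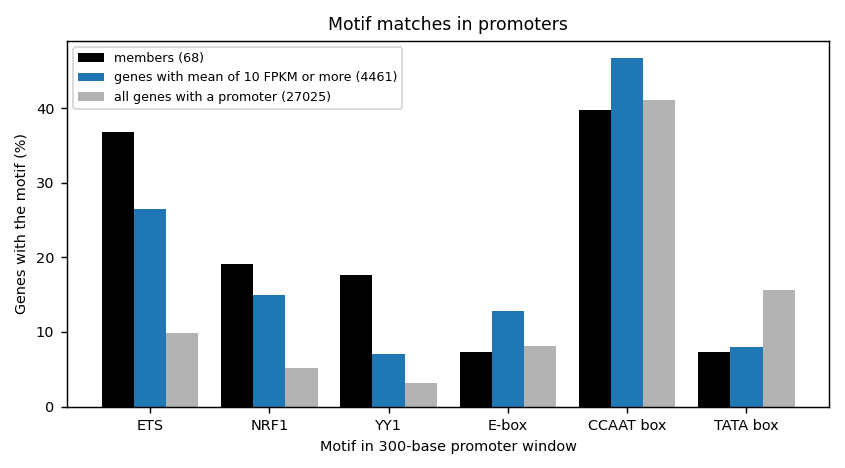
Percentage of genes (vertical axis) whose 300-base promoter window held each of 6 motifs (horizontal axis), for the 68 members with a window (black), the 4461 genes averaging 10 FPKM or more (blue) and all 27025 genes with a window (grey). The ETS bar of the members reaches 36.8% and their YY1 bar 17.6%, against 26.5% and 7.04% of the genes at 10 FPKM or more.

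Some members had a neighbour that started close by on the opposite strand. Of 76 members with a position in GENCODE M21 (all but Mrpl33), 25 (32.9%) had the 5′ end of another protein-coding gene on the opposite strand within 500 bases. The share was 9.09% of all 21119 measured protein-coding genes and 19.0% of the 5766 averaging 10 FPKM or more. Pairs that overlap at their 5′ ends were counted along with pairs that point apart. Mrps11 and Mrpl46 overlapped, with their 5′ ends 412 bases apart on chromosome 7 and 173 exon bases shared. They stood at 139 ± 7.26 and 115 ± 8.60 FPKM. Of the 25 members, 7 had a partner within 2 times their own mean level, 14 one that was lower and 4 one that was higher by more than that, with the pair of Mrps11 and Mrpl46 entering from both sides. Among the close ones, Mrps7 (60.6 ± 3.18 FPKM) faced Gga3 at 56.5 ± 10.8, and Mrpl36 (180.4 ± 14.0) faced Ndufs6, a subunit of respiratory complex I, at 214 ± 7.41. The genes of these pairs share 127 and 30 exon bases. Strand is not stated for the reads, and the part of shared bases in the levels of such pairs was not tested. Mrpl49 (69.6 ± 2.75 FPKM) faced Fau, a gene of the cytosolic small subunit, at 1012 ± 35.6, and Mrpl32 (111 ± 12.2) faced the proteasome gene Psma2 at 507 ± 47.8. Mrps12 (55.9 ± 7.63), a protein of the decoding centre, faced Sars2, the mitochondrial seryl-tRNA synthetase, at 7.96 ± 1.43, and Mrpl40 (130 ± 11.8) faced the histone chaperone Hira at 8.36 ± 1.35. Mrpl54 (96.4 ± 8.13) faced Apba3 at 0.51 ± 0.18 FPKM. The members lay on 17 chromosomes, from 1 gene on chromosome 15 to 10 on chromosome 11.

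Every member was expressed, most of them at a mean between 50 and 200 FPKM. In limma's fit over 19706 genes, calling at a Benjamini-Hochberg adjusted p of 0.05, all 77 lay above 1 FPKM. Of all genes 52.3% lay above this level, 41.4% below it and 6.21% were called neither way. Against 10 FPKM, 71 members lay above, where 27.7% of all genes did, 3 lay below (68.4% of all genes) and 3 were called neither way (3.87%). The median member stood at 102 FPKM, with quartiles of 45.8 and 163, and the median of all genes tested was 1.79. In 46 members the mean lay between 50 and 200 FPKM, in 11 above and in 20 below, and 55 of the 77 were in the top 10% of all genes in the table. From the lowest to the highest of the 5 libraries the members' summed FPKM ran from 9052 to 10172, which was 1.18% to 1.23% of each library's total.

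**Figure D2:**
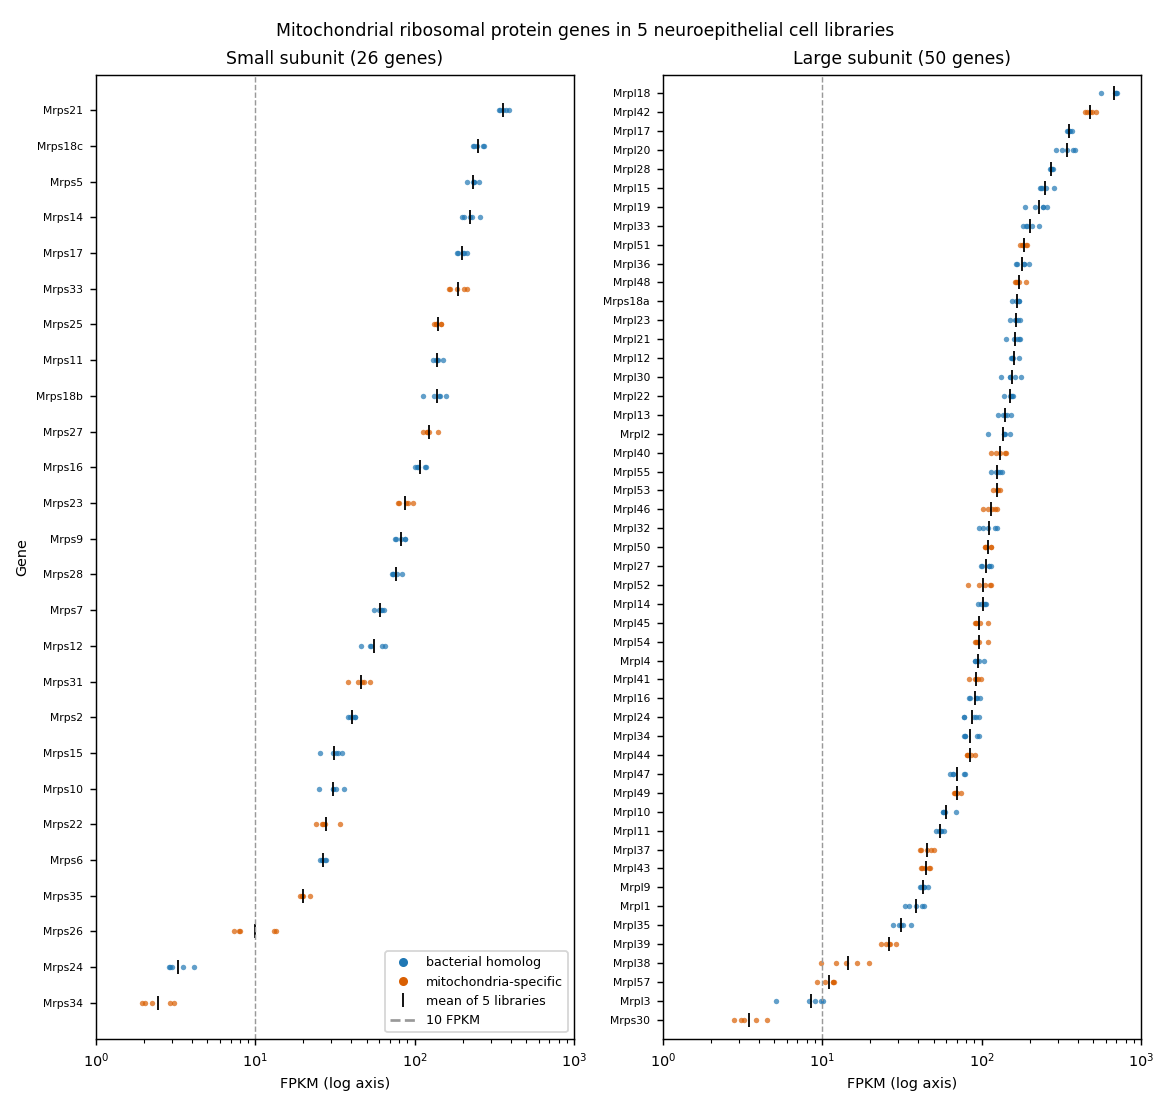
FPKM on a log axis (horizontal) of the 76 ribosomal members in each of the 5 libraries (points) with their mean (bar), small subunit left and large subunit right, blue for proteins with a bacterial homolog and orange for mitochondria-specific ones. Most genes sit between 50 and 200 FPKM with their 5 points close together, and Mrps34, Mrps24 and Mrps30 lie left of the dashed line at 10 FPKM in all 5 libraries.

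Large subunit genes led the list. Mrpl18, whose bacterial relatives bind 5S ribosomal RNA, measured 562, 686, 701, 700 and 709 FPKM over replicates 1 to 5. Replicate 1 was the low one and the other 4 lay within 23 FPKM of each other. Its gene (ENSMUSG00000057388, chromosome 17, 12911349 to 12916345 on GRCm38) shares 141 exon bases on the opposite strand with Tcp1, a chaperonin gene at 1364 FPKM, and without strand in the reads the share of Tcp1 in its level was not tested. Mrpl42, a mitochondria-specific protein, was listed at 444, 475, 460, 524 and 491 FPKM, with no annotated exon of another gene on it. Mrpl17 stood at 346, 358, 345, 368 and 352 FPKM, and Mrpl20, a protein known for its early place in subunit assembly in bacteria, at 292, 319, 374, 386 and 343. Mrpl17 varied little between libraries and Mrpl20 more. Mrps21, the highest small subunit gene, was listed at 373, 390, 339, 342 and 358 FPKM, above Mrpl20 in replicates 1, 2 and 5 and below it in the other two, so the order of Mrps21, Mrpl17 and Mrpl20 did not hold across libraries.

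Mrpl28 (273 ± 4.13 FPKM), Mrps18c (251 ± 19.2), Mrpl15 (249 ± 21.6), Mrps5 (234 ± 14.2), Mrpl19 (229 ± 27.5) and Mrps14 (221 ± 22.8) were the other members above 200. The library values of neighbours in this order overlapped. The middle of the list held Mrpl44 (84.2 ± 4.58), whose protein resembles an RNase III, and Mrpl45 (96.6 ± 7.70), which in mammals ties the ribosome to the inner membrane. Mrps36, the member outside the ribosome, stood at 93.7 ± 3.45 FPKM, close to the median.

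The 3 genes below 10 FPKM were listed far under their partners in the same particle. Mrps34 was listed at 1.96, 2.03, 2.91, 2.26 and 3.08 FPKM, a difference from 10 FPKM of -1.69 in log2(FPKM + 1) units (SE 0.10, limma adjusted p = 9.4e-07). Mrps24, the small subunit protein related to bacterial S3, was listed at 2.94, 2.90, 4.11, 3.53 and 3.00 FPKM (-1.36, SE 0.09, limma adjusted p = 1.8e-06). Mrps30 was listed at 2.80, 3.08, 4.54, 3.22 and 3.86 FPKM (-1.30, SE 0.10, limma adjusted p = 5.1e-06). In each of the 3 all 5 libraries lay under 5 FPKM, with replicate 3 or 5 highest. The mean of Mrpl18 was 274 times that of Mrps34.

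Few reads lay behind the lowest values. At the implied totals Mrps34 rested on about 31.9 to 50.7 reads per library, Mrps24 on 53.0 to 79.3 and Mrps30 on 198 to 290. These reads came from amplified cDNA with no molecular identifiers described, so they are not independent molecules. Mrps34 (chromosome 17, 24895116 to 24897502) shares 763 exon bases on the same strand with Nme3, at 37.1 FPKM, and 1309 on the opposite strand with Mapk8ip3, at 9.0, so how reads were divided among them could set its level. Mrps24 shares 226 exon bases on the same strand with Urgcp, at 0.27 FPKM, and Mrps30 623 on the opposite strand with B430218F22Rik, at 0.23. The part of these overlaps in the low levels was not tested. In all, 31 members shared exon bases with another annotated gene, 23 of them with a protein-coding one.

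The 3 members called neither way against 10 FPKM were Mrpl3, Mrps26 and Mrpl57. Mrpl3, a large subunit protein near the peptidyl transferase centre in its bacterial relatives, was listed at 8.32, 5.16, 8.98, 9.78 and 10.1 FPKM (log2 difference -0.25, SE 0.13, limma adjusted p = 0.099). Mrps26 was listed at 13, 13.5, 7.99, 7.39 and 7.97 FPKM (-0.05, SE 0.14, limma adjusted p = 0.76), and Mrpl57 at 11.7, 11.6, 10.5, 11.8 and 9.28 (0.12, SE 0.07, limma adjusted p = 0.12). Mrps26 had 2 levels, high in replicates 1 and 2 and lower in the other three. Mrpl57 was called above 10 FPKM without replicate 5 (0.17) and after each library was rescaled to an FPKM sum of 1000000 (0.42). The libraries summed to between 747034 and 847625, so that rescaling raised every value above 0, which in effect lowered the level tested. After median-ratio rescaling Mrpl57 was still called neither way (0.13). Mrpl38, listed at 19.7, 9.85, 14.2, 16.4 and 12.2 FPKM, was called above 10 (0.46, SE 0.13, limma adjusted p = 0.0098).

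Annotated transcript length ran against level. The 76 members with a GENCODE entry had a median coding transcript of 1052 bases, against 2089 bases for 10805 genes averaging 1 FPKM or more. The 25 members with the shortest transcripts, 405 to 803 bases, had a median level of 126 FPKM and none under 55.1. The 25 of the middle range had a median of 95.1 and the 26 longest, 1418 to 6073 bases, one of 65.4. Across the 76 members Spearman's rho of level and length was -0.33, against -0.26 across the larger set; the genes share libraries and depth and are not independent replicates. For GC content rho was -0.02 across the members and -0.14 across the larger set. Since FPKM divides by transcript length, a gene whose cells use a shorter form than the annotated one is listed too low, and the part of this in the order of members was not tested. Mrps34 and Mrps24 had transcripts of 918 and 995 bases, in the middle range, while Mrps30, Mrpl3, Mrps26 and Mrpl57 had 3319, 2309, 4278 and 2877.

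**Figure D3:**
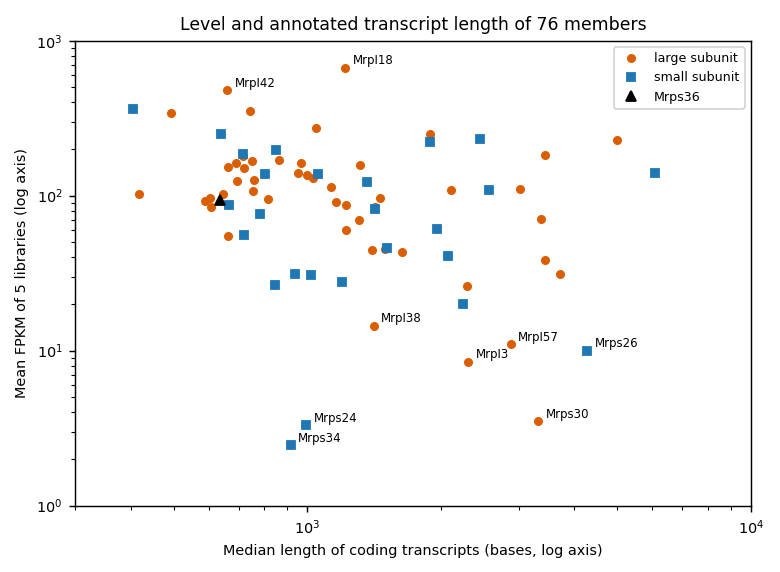
Mean FPKM of the 5 libraries (vertical, log axis) against the median length of annotated coding transcripts (horizontal, log axis) for 76 members, circles for the large subunit, squares for the small and a triangle for Mrps36. No member with a transcript of 803 bases or fewer lies under 55.1 FPKM, and the lowest genes, Mrps34 and Mrps24, have transcripts of 918 and 995 bases.

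The large subunit stood above the small one in the middle of its range. The median of 50 large subunit genes was 104, 105, 110, 112 and 110 FPKM in replicates 1 to 5 and that of 26 small subunit genes 74.3, 77.3, 76.9, 85.2 and 75.9, so the large subunit's lowest library median lay above the small subunit's highest. The ranges of single genes overlapped almost wholly, from 3.50 to 672 FPKM for means of the large subunit and from 2.45 to 360 for the small, and 36 of 50 large subunit genes lay above the small subunit median. Above 10 FPKM were 47 of 50 and 23 of 26.

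Within each subunit the proteins of bacterial descent had the higher median. In the large subunit it was 136 FPKM for 31 genes with a bacterial homolog and 96.4 for 19 mitochondria-specific genes. In the small subunit it was 81.5 FPKM for 17 and 45.8 for 9. Mitochondria-specific genes were still found near the top, such as Mrpl42 at 479 ± 30.6 and Mrps33 at 186 ± 21.6 FPKM, and genes of bacterial descent near the bottom, such as Mrps24. Since members are not replicates of a class, these medians are given without a test.

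Subunits that carry other symbols behaved like the named ones with 1 exception. Chchd1 stood at 271 ± 26.9 FPKM, Ict1, a peptidyl-tRNA hydrolase built into the large subunit, at 269 ± 9.66, Ptcd3 at 169 ± 18.3, Aurkaip1 at 157 ± 12.0 and Dap3, a GTP-binding protein of the small subunit, at 137 ± 9.82. All 5 lay above 10 FPKM. Gadd45gip1, a large subunit protein near the exit of the nascent chain, was listed at 1.98, 1.85, 1.23, 0.97 and 1.26 FPKM and lay below 10 (limma adjusted p = 2.5e-07).

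The 3 forms of S18 differed in level. Mammals have 3 relatives of the bacterial protein: Mrps18c at the bacterial position, Mrps18b elsewhere in the small subunit and Mrps18a in the large subunit. Mrps18c was listed at 273, 236, 245, 269 and 232 FPKM, Mrps18a at 156, 163, 171, 172 and 170, and Mrps18b at 113, 133, 145, 156 and 141. Mrps18c was the highest and Mrps18b the lowest in every library. Mrps18b minus Mrps18c was -0.87 ± 0.23 on the log2(FPKM + 1) scale, Mrps18b minus Mrps18a -0.28 ± 0.12 and Mrps18a minus Mrps18c -0.59 ± 0.14, each in the same direction in 5 of 5 libraries. Flipping signs over the 5 libraries (exact permutation test, both sides) gave p = 0.063 for each, also after Benjamini-Hochberg adjustment over 7 pairs, which is the smallest value that 5 libraries allow, so no pair could pass 0.05.

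The stalk of the large subunit, which draws in translation factors, holds several copies of Mrpl12 on 1 Mrpl10. Mrpl12 was listed at 158, 155, 173, 152 and 155 FPKM and Mrpl10 at 58.4, 69.3, 56.9, 59.3 and 57.1. The log2 excess of Mrpl12 over Mrpl10 was 1.38 ± 0.16, positive in each of the 5 libraries (exact permutation p = 0.063, adjusted 0.063).

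Each universal protein of the mitochondrial ribosome has a cytosolic counterpart of common descent, which allowed the 2 ribosomes to be compared gene by gene. In 26 of 27 such pairs the mitochondrial gene was the lower one in all 5 libraries, for which the exact permutation p was 0.063 (adjusted over 27 pairs, 0.065). The median difference was -4.27 on the log2(FPKM + 1) scale and the median ratio of means 19.5. The widest gaps were Mrps24 against Rps3 (-8.64 ± 0.15; 3.30 and 1701 FPKM) and Mrpl3 against Rpl3 (-8.37 ± 0.33; 8.47 and 3070 FPKM). Among the narrow ones were Mrpl18 against Rpl5 (-1.41 ± 0.11, at 672 and 1784 FPKM) and Mrpl15 against Rpl27a (-0.66 ± 0.12). Mrpl15 measured 232, 236, 252, 285 and 238 FPKM and Rpl27a 413, 373, 409, 404 and 370. Mrps5 and Rps2 did not differ beyond their spread: Mrps5 was listed at 234, 251, 212, 234 and 237 FPKM and Rps2 at 232, 176, 288, 231 and 244 (difference 0.01 ± 0.34, Mrps5 higher in 3 of 5 libraries, exact permutation p = 0.81). Reads of cytosolic genes such as Rps2 and Rpl27a, which have many processed copies in the genome, may have been split, so these levels are uncertain.

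**Figure D4:**
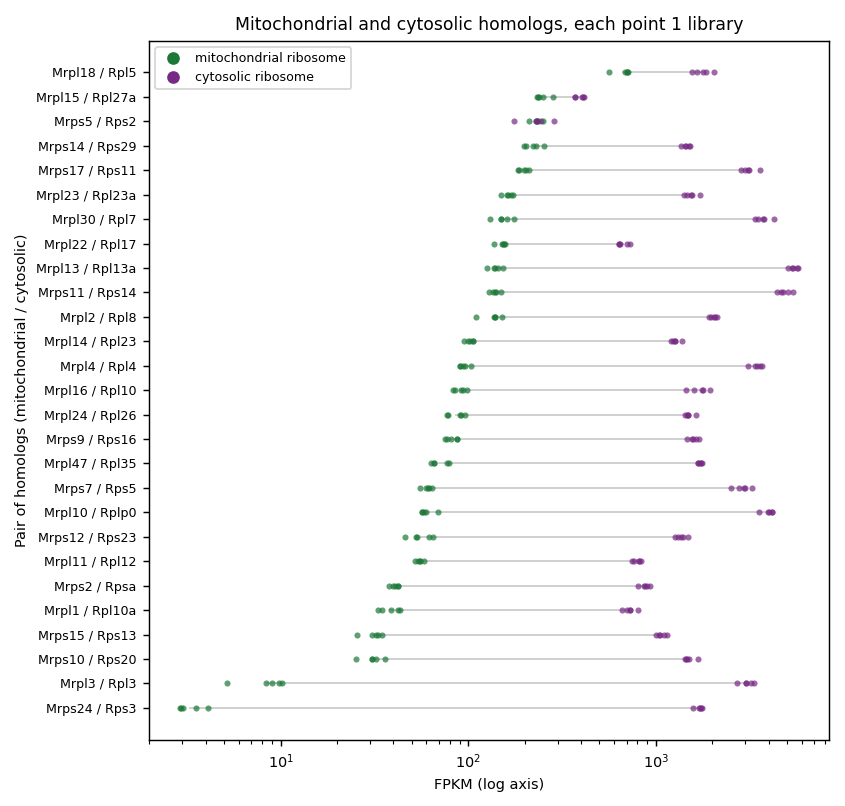
FPKM on a log axis (horizontal) of 27 pairs of homologs, mitochondrial gene in green and cytosolic gene in purple, each point 1 library, ordered by the level of the mitochondrial gene. Green and purple points are apart in 26 pairs and overlap for Mrps5 and Rps2.

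As a set the 77 cytosolic ribosomal protein genes had a median of 1450 FPKM and all lay above 10. The 84 nuclear genes of oxidative phosphorylation, which include forms used in other tissues, had a median of 226 FPKM with 77 above 10 and 7 below. The median of the mitochondrial ribosomal genes, 102 FPKM, was thus under both.

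Genes that build and serve the mitochondrial ribosome were lower than its proteins. Of 25 measured assembly factors 16 lay above 10 FPKM and 9 below, with a median of 18.5 FPKM. Mterf3 (118 ± 7.51) and the helicase Dhx30 (117 ± 8.83) were highest, and Mpv17l2 lowest at 0.52 ± 0.20. Of 11 translation factors 7 lay above, 2 below and 2 neither way, with a median of 33.2. The elongation factor Tufm stood at 121 ± 9.44 and its exchange factor Tsfm at 54.9 ± 6.79, a log2 excess of Tufm of 1.13 ± 0.28, positive in each library (exact permutation p = 0.063, adjusted 0.063). Gfm1 exceeded Gfm2 by 0.37 ± 0.26 and Mtif2 exceeded Mtif3 by 0.27 ± 0.12, both in 5 of 5. Pdf, which removes the formyl group from new chains, was lowest at 3.04 ± 0.72.

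Of 14 genes that make and handle mitochondrial RNA 11 lay above 10 FPKM, 1 below and 2 neither way, with a median of 18.2. Slirp, which guards mitochondrial messenger RNA, stood at 254 ± 20.9 and Tfam, which packs mitochondrial DNA, at 145 ± 7.73, while the RNA polymerase Polrmt was lowest at 7.66 ± 1.44. Of 17 mitochondrial tRNA synthetases 7 lay above, 8 below and 2 neither way, with a median of 9.76, from Lars2 at 1119 ± 182 to Aars2 at 0.55 ± 0.25.

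Between libraries the members varied little. The median SD of log2(FPKM + 1) was 0.11, against 0.16 over the 10983 genes averaging 1 FPKM or more and 0.12 over the 1675 genes between the members' quartiles of 45.8 and 163 FPKM. In 72 of 77 members the SD was under 0.2. The 5 above were among the lowest members, Mrps26 (0.39), Mrpl38 (0.36), Mrpl3 (0.35), Mrps30 (0.22) and Mrps34 (0.21). The steadiest of the high members was Mrpl28, listed at 272, 271, 278, 275 and 268 FPKM, an SD of 0.02.

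Mrps26 and Mrpl3 did not vary with each other. Mrps26 was highest in replicates 1 and 2, the libraries with the smallest sums of mesenchyme markers (41.7 and 68.6 FPKM), and lower in replicates 3 to 5, where these sums were 118 to 144. Other marker sums split the same libraries. Those of neuron markers were 124 and 132 FPKM in replicates 1 and 2 and 93.5 to 104 in the others. Neural progenitor sums were also highest in replicates 1 and 2, and blood and endothelium sums lowest. Surface ectoderm sums did not follow this split. Mrpl3 was lowest in replicate 2, and Mrpl38, high in replicate 1, was also lowest there. The part of other cell types in these differences was not tested.

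Relative to their own means, more members were high in replicate 4 and low in replicate 1 than in the other libraries. Replicate 4 held the highest value of 40 members and replicate 1 the lowest value of 40. The median level over the 77 members had another order, at 96.3, 103, 100, 99.7 and 94.5 FPKM in replicates 1 to 5, highest in replicate 2 and lowest in replicate 5. The median deviation from the gene's own mean was -0.08, -0.02, 0.03, 0.08 and 0.00 on the log2(FPKM + 1) scale in replicates 1 to 5. For the genes between the members' quartiles it was -0.09, 0.03, -0.03, 0.09 and 0.01, and for the cytosolic ribosomal genes -0.07, -0.03, 0.02, 0.10 and -0.01. Rescaling each library to the same FPKM sum turned the sign in replicates 1 and 4, to 0.01 and -0.00, and the summed FPKM of the libraries was itself smallest in replicate 1 and largest in replicate 4.

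The messenger RNAs that the mitochondrial ribosome translates moved far more than its proteins' genes. The 13 protein genes of the mitochondrial genome had a median SD of 0.40 and stood between mt-Nd4l at 110 ± 38.8 and mt-Atp8 at 4397 ± 1177 FPKM. Their median deviation was 0.04, 0.59, -0.49, 0.02 and -0.17 in replicates 1 to 5, against -0.02 and 0.03 for the ribosomal members in replicates 2 and 3, the libraries at either end. As an example, mt-Co1, a core subunit of cytochrome oxidase, was listed at 439, 634, 260, 427 and 379 FPKM. The 80 nuclear subunits of oxidative phosphorylation averaging 1 FPKM or more, at -0.06, 0.01, 0.01, 0.08 and -0.03, stayed near the ribosomal members. The mesenchyme markers deviated by -0.74, -0.36, 0.46, 0.22 and 0.33 in the same libraries, and the part of the cell mixture or of RNA quality in the mitochondrial values was not tested.

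**Figure D5:**
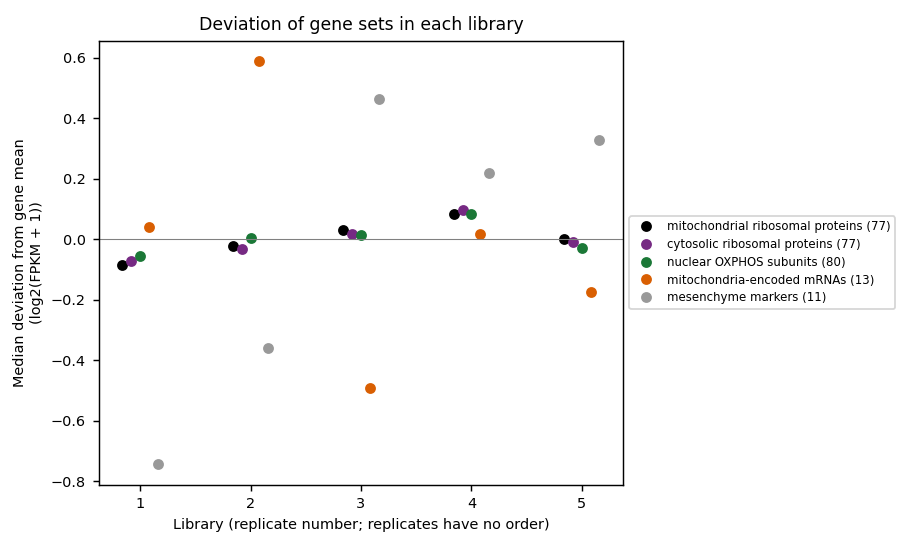
Median deviation of log2(FPKM + 1) from each gene's own mean (vertical) in each of the 5 libraries (horizontal), black for the 77 members, purple for cytosolic ribosomal proteins, green for nuclear subunits of oxidative phosphorylation, orange for the 13 mitochondria-encoded genes and grey for 11 mesenchyme markers averaging 1 FPKM or more. Black, purple and green points stay within 0.10 of zero, while orange points run from -0.49 to 0.59.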

How the data were processed

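RNA sequencing of total RNA from mouse NECs was analysed in 5 libraries. Per the labels' protocols, full-length cDNA was made from poly-dT with template switching and amplified, sheared and sequenced as single reads, with no molecular identifiers described and strand not stated. The authors deposited FPKM per gene and library. Cuffdiff 2.2.1, TopHat2 2.0.11, cutadapt, CASAVA 1.8 and the mm10 build are listed, without their roles, per the submitters' processing notes. The annotation used is not given in the sources used here.

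FPKM are not counts, so tests used log2(FPKM + 1), a scale that understates differences between low genes. With limma 3.58.1 in R 4.3.3 an intercept over the 5 libraries was tested (two-sided, variance trended on level) against 1 and against 10 FPKM for the 19706 genes above 0 in at least 1 library, with Benjamini-Hochberg adjustment over all of them and a threshold of 0.05. On simulated data, 4% of 200 genes set at 1 FPKM were called, and 94% to 96% of genes shifted by 0.4 or 0.8. Pairs were compared within libraries by the exact sign-flip permutation test over 32 patterns. Implied read totals came from genes of 1 transcript, over 800 bases long, at values below 0.15 FPKM, with 200 bases taken off the length. Positions, exons and lengths came from GENCODE M21 and promoters from RefSeq (GRCm38.p6), both of the mm10 build, and a gene counted as holding a motif if any of its windows did.

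The members, lists and pairs were chosen with earlier results of these data known, and the motifs after a first look at the promoters. Any member could be named. Values of every library were given for the 5 highest, the 5 lowest and the 5 most variable members, those not above 10 FPKM, and the genes of the S18, stalk, Mrps5 and Mrpl15 pairs; the rule asked for all pairs discussed, and the others are given by means and differences. Of each other list the 2 highest genes and the lowest were named, with every subunit under another symbol; some genes are not reported here. Others (Mrpl28, mt-Co1, the close neighbours on the opposite strand) were chosen after their values were seen. Of the 30 listed assembly factors 25 were found by symbol, the others being further names of listed genes.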

Additional observations from a re-analysis of the deposited data

Results flagged for a closer look

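In 6 of 77 members and 2 of 100 other genes checked, 1 library lay apart from the remaining 4, its gap to the nearest being over 0.71 of the gene's whole range. Chance flags about 1 in 20 groups. Mrpl18 was low in replicate 1, at 562 FPKM against 686 to 709 in the others, and so was Mrpl22, at 137 FPKM against 152 to 157. Mrpl54 was high in the same library, at 110.4 FPKM against 90.7 to 96.4. Mrpl10 was high in replicate 2, at 69.3 FPKM against 56.9 to 59.3, and Mrpl12, its partner in the stalk, in replicate 3, at 173 FPKM against 152 to 158. Mrps35 was high in replicate 4, at 21.9 FPKM against 19.1 to 19.9. Of the other genes Pnpt1, a mitochondrial RNA nuclease, was high in replicate 5, at 33.4 FPKM against 30.5 to 31.0, and Rpl26 in replicate 4, at 1644 FPKM against 1435 to 1492.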

How the results depend on the processing

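Over 32 results 331 alternatives were listed, of which 316 were labelled as unchanged. The label covered the same direction and side of the threshold, a similar count, or a shift under the spread between replicates. It also covered entries that only repeat the main value, for class levels and library deviations, and changes of sign where neither setting was called. After rescaling by FPKM sum, for example, Mrps26 went from -0.05 to 0.25 and Mrpl3 from -0.25 to 0.05 against 10 FPKM. Each library summed to less than 1000000, so that rescaling raised every value above 0. The alternatives were levels of 0.5, 2, 5 and 20 FPKM, pseudocounts of 0.5 and 0.1, rescaling by FPKM sum (to 1000000) or median ratio, robust or untrended variance in limma, keeping every gene or those averaging 0.1 FPKM, and each replicate left out. All 77 members stayed above 1 FPKM in every setting that kept this level, and above 0.5 FPKM, while 76 lay above 2 FPKM. Against 20 FPKM, 7 members lay below, against 3 for 10 FPKM. Moving the level changed the sign for 4 members near it, as its construction implies, of which Mrpl38 had been called above 10 FPKM and the other 3 neither way: against 5 FPKM the difference was 0.63 for Mrpl3 and 0.83 for Mrps26, and against 20 FPKM -0.81 for Mrpl57 and -0.48 for Mrpl38. Mrps35, called above 10 FPKM, was at 0.0026 against 20 FPKM and no longer called. The median log2 level of the mitochondria-specific large subunit genes ran from 6.56 to 6.62 with 1 replicate left out. The members' deviation in replicate 1 was -0.0164 after median-ratio rescaling, and after rescaling to equal sums, an alternative chosen after seeing the data, 0.0102 in replicate 1 and -0.0017 in replicate 4; the cause was not tested. No paired comparison between groups was possible because there is 1 group. Mrps34 and Mrps24 rest on few reads, which limits how finely their levels can be told apart.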

Other observations

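Genes in this paragraph were chosen after their values were seen. Supv3l1, a mitochondrial RNA helicase, had FPKM of 7.73, 6.31, 27.6, 28.1 and 11.2 over replicates 1 to 5, high in replicates 3 and 4, and its SD of 0.94 in log2(FPKM + 1) exceeded that of every member (at most 0.39). Polg2, a subunit of the mitochondrial DNA polymerase, was listed at 11.5, 12.0, 7.17, 8.03 and 8.59 FPKM, with replicates 1 and 2 above the others, the same split as Mrps26. Of the mitochondria-encoded genes, mt-Atp8, mt-Atp6, mt-Co3 and mt-Nd3 were not lowest in replicate 3, unlike the other 9: mt-Atp6 was listed at 2601, 4201, 3330, 4522 and 2459 FPKM, with replicate 4 highest, whereas mt-Cytb was listed at 839, 1365, 559, 834 and 751, with replicate 2 highest.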
